A study of Mus musculus with 9 samples.

Results

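The MYC, MAX and MXD network was followed through 10 of the 24444 gene symbols in a mouse RNA-seq count table. The 10 were taken by symbol: Myc, its neighbour Pvt1, Mycn, Max, Mxi1, Mxd1, Mxd3, Mxd4, Mnt and Mga. All 10 had enough counts to be tested, among 15171 genes that did. The series models WNT medulloblastoma, a cerebellar tumour of childhood in which β-catenin stays active, and its title concerns the part of MYC in growth and spread. There were 3 groups of 3 libraries, described as biological replicates in the design text. Controls were cerebella from normal CD1-nude animals, a strain without a working thymus, with no engineered allele named in their labels. Both tumour groups grew orthotopically in CD1-nude hosts from implanted cells that shared Blbp-Cre, Pik3caE545K (+/flx), Trp53flx/flx and Ctnnb1Ex3flx/flx. Blbp is a promoter of neural progenitors and radial glia, so the Cre marks the cells from which the implants came, not the host. One tumour group is labelled EV and the other MycT58A. The labels give no ages, do not spell out EV, name no cell preparation for any tumour, and do not give the species or construct of the MycT58A gene. Tumour regions positive for GFP were dissected, so host cells inside them are part of each library. Replicates are numbered here in accession order, as names only.

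MYC and its relative N-MYC are transcription factors that bind DNA only when paired with MAX. The pairs favour the E-box CACGTG and recruit coactivators to genes of growth, ribosome production and cell division. MAX pairs as well with the MXD proteins, MNT and MGA, which bind the same sites and recruit repressors, so that the outcome depends on which partner MAX has. MYC protein is short-lived because GSK3 and the ubiquitin ligase FBXW7 mark it for destruction through a phosphorylated stretch, and the MycT58A substitution removes a phosphorylation site in that stretch. In medulloblastoma, amplification of the MYC or MYCN gene is a known mark of aggressive tumours.

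Max, Mxd4 and Mnt carry the network's own binding sequence near their start site, which is why their DNA is shown first.
Max at chr12:76962234-76962263, minus strand: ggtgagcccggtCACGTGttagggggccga
Mxd4 at chr5:34187912-34187941, minus strand: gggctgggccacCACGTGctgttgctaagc
Mnt promoter at chr11:74830674-74830919, plus strand: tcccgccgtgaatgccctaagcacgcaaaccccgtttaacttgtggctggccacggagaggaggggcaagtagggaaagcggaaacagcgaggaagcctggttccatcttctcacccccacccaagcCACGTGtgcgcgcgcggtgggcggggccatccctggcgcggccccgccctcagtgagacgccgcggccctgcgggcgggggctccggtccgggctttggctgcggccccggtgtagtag
The sequences are from RefSeq, build GRCm38.p6, read 5′ to 3′ on the gene's strand, and capitals mark the E-box CACGTG, which reads the same on both strands. The promoter table, with 250 bases before and 50 after each start site, had entries for 8 of the 10 genes. Max, Mxd4 and Mnt, 3 of these 8, held CACGTG, against 7.15% of all 32817 promoters in the table. The 8 genes had 10 promoter entries between them, whereas the percentages of all promoters are counted per entry. The E-box lay at position -3 from the start site in Max, -219 in Mxd4 and -123 in Mnt. The related CACGCG, searched on both strands and not overlapping CACGTG in letters, was found in Mga alone of the 8, against 9.26% of all promoters. A match of letters is a description and shows no binding. In the results below, Mnt was higher in the MycT58A tumours than in controls, while Max and Mxd4 passed no test.

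Libraries held 16631523 to 30410089 counts. Levels are CPM, counts scaled by library size with edgeR's TMM factors, and a gene is called where edgeR's quasi-likelihood test, adjusted over all 15171 genes, gives p under 0.05. Control libraries had granule neuron markers summing to 2676 to 3978 CPM and Purkinje cell markers summing to 2938 to 3565 CPM. Forebrain cortex markers summed to only 3.68 to 6.02 CPM there, although a protocol label calls the control tissue cortex. The median gene had an SD of log2 CPM of 0.17 among controls, 0.64 among EV tumours and 0.20 among MycT58A tumours. Pericyte and fibroblast markers summed to 1450, 10446 and 6193 CPM in EV replicates 1 to 3, but the markers did not move together. Dcn and Pdgfrb were highest of the EV tumours in replicate 2 and Lum in replicate 1. Col1a1 was highest in replicate 3 and gave 6006 CPM of the sum there, where Dcn, Pdgfrb and Lum were lowest. In bulk tissue, fewer cells of a type and less RNA per cell cannot be told apart.

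Myc, the gene changed by design, was read first as a check of the labels. The controls had 0.94, 1.595 and 32.0 CPM for replicates 1 to 3. EV tumours had 360.0, 19.9 and 762 CPM in the same order. MycT58A tumours had 918, 859 and 727 CPM. The MycT58A tumours were uniformly high, whereas the EV tumours spread over 38.3-fold and overlapped both other groups. The library labelled EV replicate 3 lay inside the MycT58A range, so the Myc level by itself does not separate that library from the engineered group. Counts per gene do not tell RNA of an introduced Myc from that of the resident gene.

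Against controls, Myc rose 33.1-fold in EV tumours (log2 fold change 5.05 ± 1.605 SE, n = 3 against 3, edgeR adjusted p = 0.0253). This call was lost without control replicate 1 (adjusted p = 0.0600), control replicate 2 (adjusted p = 0.0699) or the library labelled EV replicate 3 (adjusted p = 0.0569, log2 fold change 4.08), in the same edgeR test. It was also lost with only the 2 groups compared in the fit, and 12 of 16 alternative analyses kept it. In MycT58A tumours Myc rose 72.5-fold (6.18 ± 1.69, edgeR adjusted p = 0.0118), and that call held without any 1 library. Control replicate 3, at 32.0 CPM, lowered both estimates: without it the log2 fold changes were 8.29 and 9.38. Whether that library holds RNA from a tumour sample was not tested, so the fold changes with and without it are both given. Between the tumour groups Myc was not called (1.13 ± 1.37, edgeR adjusted p = 0.592), and the 95% interval of that log2 difference was -2.21 to 4.47.

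Control replicate 3 had the most Myc of the controls and EV replicate 2 the least of the tumours. Both libraries also differed in other genes, chosen for this check after their values were seen. Ddx3y, Eif2s3y, Kdm5d and Uty, 4 genes of the Y chromosome, summed to 0, 0.0443 and 1.59 CPM in control replicates 1 to 3. In EV tumours the sum was 112.5, 9.47 and 84.5 CPM, and in MycT58A tumours 137, 151 and 133 CPM. The X-inactivation RNA Xist was 24.0 to 60.2 CPM in controls and at most 1.82 CPM in tumours. Xist and the Y-linked sum each separated all controls from all tumours. This sex-linked difference coincides with tumour against control, and its part in the comparisons with controls was not tested. Control replicate 3 was thus the control with the most Y-linked counts, 34 of them, and EV replicate 2 the tumour with the fewest. The division genes Mki67, Top2a and Ccnb1 summed to 1.43, 1.11 and 26.1 CPM in controls, to 660, 281 and 914 CPM in EV tumours and to 1323 to 1453 CPM in MycT58A tumours. Again control replicate 3 was the highest control and EV replicate 2 the lowest tumour. Of 747 other genes with a tumour mean of at least 10 CPM and 10-fold that of the other 2 controls, control replicate 3 had a median excess of 0.27 log2 units, and 8 were more than 10-fold above those controls, while Myc was 4.62 log2 units above. The part of these differences in the Myc values was not tested.

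**Figure D1:**
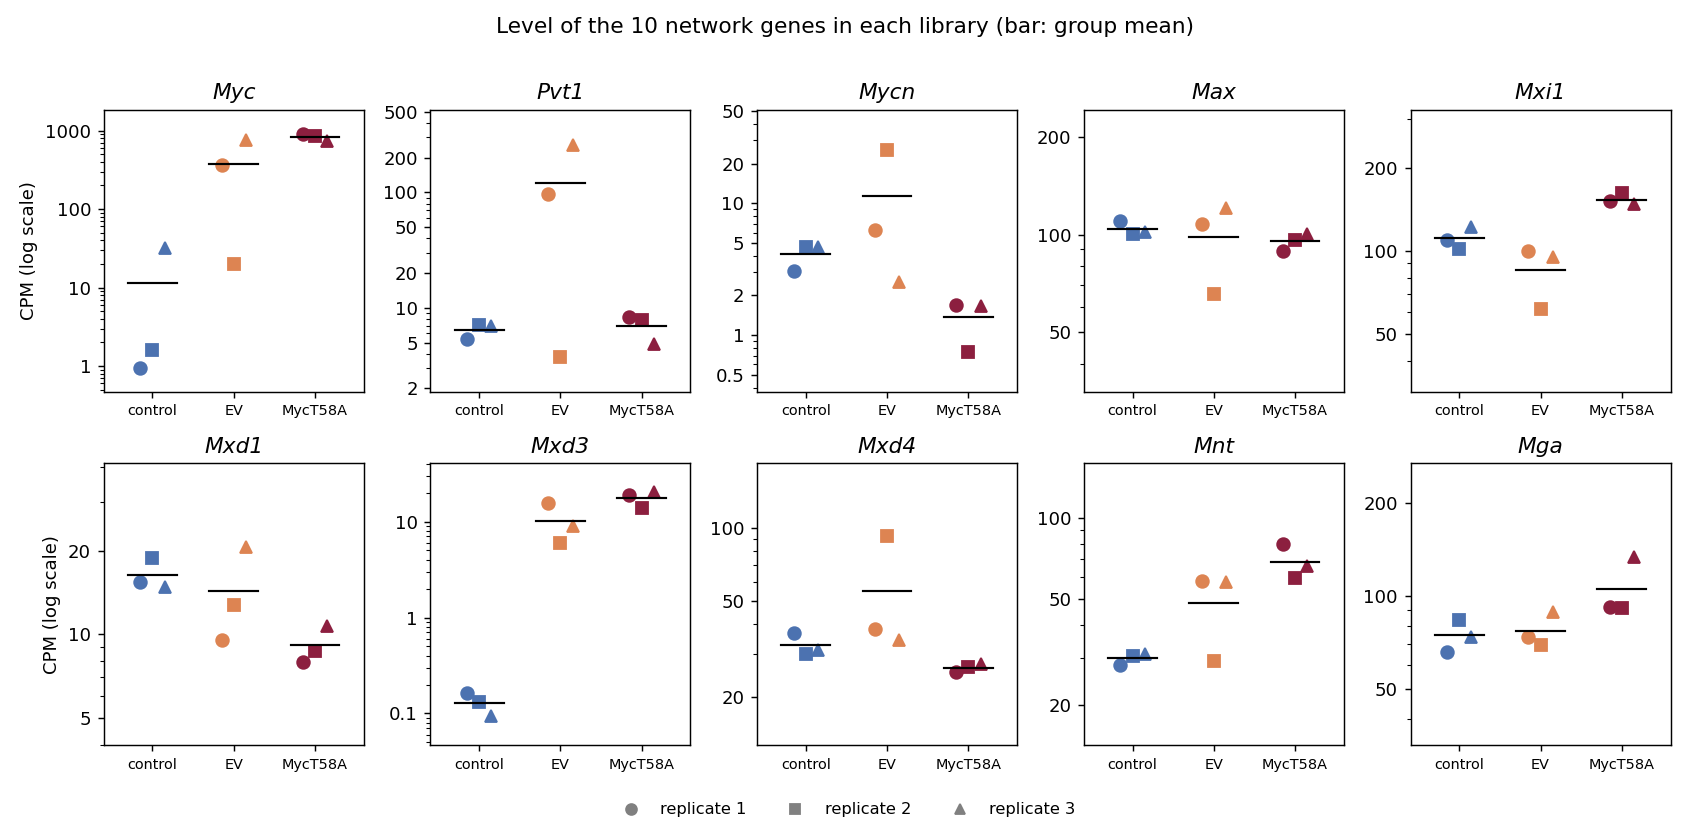
Level of the 10 network genes in each of 9 libraries, in TMM-scaled CPM on a log axis whose range differs between panels. Points are libraries, shapes are replicate numbers and bars are group means. Myc is at 727 CPM or more in all 3 MycT58A tumours. EV replicate 2 (square) is apart from the other EV tumours in Myc, Pvt1, Mycn, Max, Mxi1, Mxd4 and Mnt.

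Pvt1 is a long non-coding RNA gene downstream of Myc, known in human and mouse tumours for being gained together with it. In GENCODE vM21 on mm10, Myc occupies 15:61985391-61990374 and Pvt1 15:62037986-62378096, both on the plus strand. Pvt1 had 5.39, 7.04 and 6.95 CPM in controls, 96.4, 3.74 and 260.1 CPM in EV tumours, and 8.27, 7.91 and 4.86 CPM in MycT58A tumours. It was high in EV replicates 1 and 3, and EV replicate 2 lay below every control and every MycT58A tumour. Pvt1 rose 18.6-fold in EV tumours against controls (4.21 ± 1.14, edgeR adjusted p = 0.0126). That log2 fold change was 3.00 without the library labelled EV replicate 3 and 4.79 without EV replicate 2, and limma-voom did not call it (adjusted p = 0.208). MycT58A tumours and controls differed by 0.12 ± 1.01 log2 units (edgeR adjusted p = 0.926).

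The 2 neighbours were therefore both high in EV replicates 1 and 3, and both lowest of the EV tumours in replicate 2. In that library Pvt1 was below every control, while Myc was above control replicates 1 and 2. MycT58A tumours had high Myc with Pvt1 near the control level. Myc CPM over Pvt1 CPM was 3.74, 5.33 and 2.93 in EV tumours, and 111, 109 and 149.5 in MycT58A tumours. No MycT58A ratio came near an EV ratio. In controls the ratio was 0.174, 0.226 and 4.60. Control replicate 3 reached the EV range through its Myc level of 32.0 CPM alone. Its Pvt1, 6.95 CPM, lay between the 5.39 and 7.04 CPM of the other controls. The difference in Pvt1 itself between the tumour groups, -4.09 ± 1.13 log2 units, missed the threshold (edgeR adjusted p = 0.0573) and passed it without EV replicate 2 (edgeR adjusted p = 0.00153) or with DESeq2 (adjusted p = 0.000315). Within 1 megabase of Myc no other gene was tested. The pseudogene H2afy3, which shares 109 exon bases with Pvt1 on the opposite strand, had 54 counts in the library labelled EV replicate 3 and 0 to 3 elsewhere. Whether the counting used strand is not given in the sources used here.

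**Figure D2:**
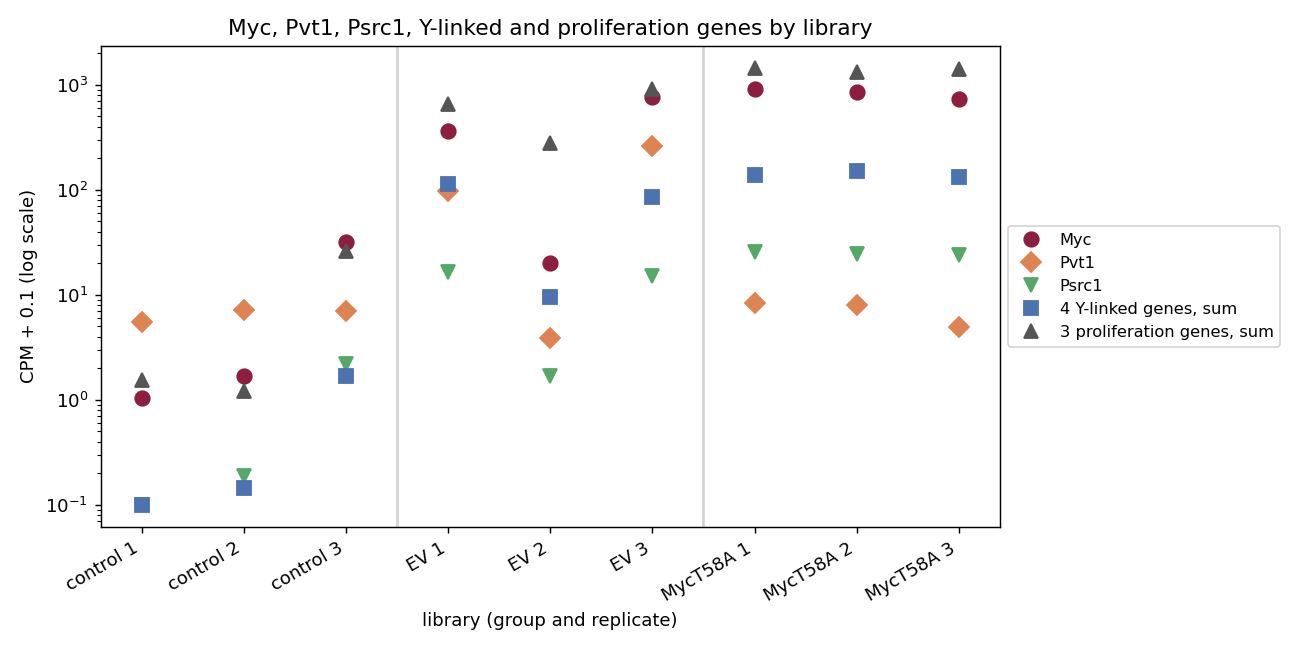
Myc, Pvt1, Psrc1, the sum of 4 Y-linked genes and the sum of the 3 division genes in each library, as CPM + 0.1 on a log axis. Pvt1 is at 96.4 and 260.1 CPM in EV replicates 1 and 3 and under 8.28 CPM in the other 7 libraries, while the other series share a low EV replicate 2 and high MycT58A tumours.

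Mycn encodes N-MYC, the family member of early neural progenitors, and lies at 12:12936093-12941914 on the minus strand. It had 3.06, 4.65 and 4.62 CPM in controls, 6.23, 25.5 and 2.55 CPM in EV tumours, and 1.69, 0.745 and 1.66 CPM in MycT58A tumours. All MycT58A tumours were below every other library, and EV replicate 2, the EV tumour with the least Myc, had the most Mycn. Mycn passed no test: the log2 differences were 1.47 ± 0.76 for EV against control (edgeR adjusted p = 0.126), -1.59 ± 0.77 for MycT58A against control (edgeR adjusted p = 0.103) and -3.06 ± 0.81 for MycT58A against EV (edgeR adjusted p = 0.0526). The last depended on single libraries. It passed without EV replicate 1 (edgeR adjusted p = 0.0450) or the library labelled EV replicate 3 (edgeR adjusted p = 0.00797), and was -1.69 without EV replicate 2 (edgeR adjusted p = 0.0614).

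Mycl, which encodes L-MYC, is not one of the 10 genes but completes the MYC family. It had 5.39, 8.51 and 7.23 CPM in controls, 9.21, 9.56 and 32.1 CPM in EV tumours, and 38.0, 48.05 and 41.2 CPM in MycT58A tumours. The library labelled EV replicate 3 was again the EV tumour nearest to the MycT58A group. Mycl rose 6.02-fold in MycT58A tumours against controls (2.59 ± 0.50, edgeR adjusted p = 0.00221).

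Max, the partner that every MYC protein needs, lies at 12:76937269-76962201 on the minus strand. It had 109.8, 100.4 and 101.9 CPM in controls, 107.8, 65.5 and 121 CPM in EV tumours, and 89.2, 96.2 and 100.4 CPM in MycT58A tumours. Only EV replicate 2 lay outside the narrow range of the other 8 libraries, on the low side. Max was not called in any comparison, with log2 differences of -0.08 ± 0.23, -0.13 ± 0.23 and -0.04 ± 0.23 and edgeR adjusted p of 0.769, 0.644 and 0.910 for EV against control, MycT58A against control and MycT58A against EV. The 95% interval for MycT58A against EV was -0.60 to 0.51 log2 units, which holds changes of up to that size in either direction.

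Of the MXD repressors, Mxd3 changed most against controls. MXD3 differs from its relatives in being known as a gene of dividing cells, while MXD1, MXI1 and MXD4 are linked to differentiation. Mxd3, at 13:55325168-55329823 on the minus strand, had 0.163, 0.133 and 0.0933 CPM in controls, from 9 counts in all. EV tumours had 15.6, 5.95 and 9.07 CPM and MycT58A tumours 18.7, 13.7 and 20.2 CPM. Every tumour exceeded every control, and EV replicate 2 was the lowest tumour. The rise was 75.2-fold in EV (6.23 ± 0.51, edgeR adjusted p = 4.74e-05), and in the MycT58A group 129-fold (7.01 ± 0.52, edgeR adjusted p = 3.14e-05). Both calls passed under all 16 alternative analyses. The difference between the tumour groups was 0.78 ± 0.38 log2 units (edgeR adjusted p = 0.199). The division markers above moved in the same libraries, and their part in the Mxd3 result was not tested. Prelid1, which shares 105 exon bases with Mxd3 on the opposite strand, had 80.1 to 107.8 CPM in controls, where Mxd3 was near 0, and 183 to 349 CPM in tumours.

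Mxi1, the MXD gene with the highest mean RNA per kilobase in each group, lies at 19:53310518-53375810 on the plus strand. It had 109, 102 and 122 CPM in controls, 99.8, 61.9 and 95.1 CPM in EV tumours, and 151, 162 and 147 CPM in MycT58A tumours. The 3 groups did not overlap, with EV lowest and MycT58A highest. Mxi1 was the network gene called between the tumour groups, 1.79-fold higher in MycT58A than in EV (0.84 ± 0.21, edgeR adjusted p = 0.0433). The call was fragile: adjusted p ran from 0.00285 to 0.167 over the alternatives and 6 of 16 kept it. It was lost without any 1 control (edgeR adjusted p = 0.0932 to 0.0970) or any 1 MycT58A tumour (edgeR adjusted p = 0.130 to 0.138). Against controls, the log2 differences were -0.37 ± 0.20 in EV (edgeR adjusted p = 0.147), and in the MycT58A group 0.47 ± 0.20 (edgeR adjusted p = 0.0743).

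Mxd1, at 6:86647042-86669161 on the minus strand, is induced as many cell types differentiate. It had 15.4, 18.9 and 14.8 CPM in controls, 9.52, 12.8 and 20.6 CPM in EV tumours, and 7.95, 8.66 and 10.7 CPM in MycT58A tumours. All MycT58A tumours were below all controls, and EV tumours spanned both. Mxd1 fell 1.80-fold in MycT58A tumours (-0.84 ± 0.32, edgeR adjusted p = 0.0452), and 9 of 16 alternatives kept that call. Leaving out any 1 control (edgeR adjusted p = 0.0884 to 0.149) or any 1 MycT58A tumour (edgeR adjusted p = 0.0640 to 0.139) ended it.

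Mxd4, at 5:34173883-34187720 on the minus strand, had 36.9, 30.2 and 31.4 CPM in controls, 38.1, 92.5 and 34.3 CPM in EV tumours, and 25.3, 26.7 and 27.3 CPM in MycT58A tumours. EV replicate 2 was far above the rest, and the MycT58A tumours were all below the other libraries. No Mxd4 difference passed: 0.74 ± 0.36 for EV against control, -0.31 ± 0.36 for MycT58A against control and -1.06 ± 0.36 for MycT58A against EV, with edgeR adjusted p of 0.107, 0.467 and 0.0936. Without the library labelled EV replicate 3, EV against control passed (1.004, edgeR adjusted p = 0.0296), as did MycT58A against EV (-1.30, edgeR adjusted p = 0.0256). Without EV replicate 2 the latter was -0.45.

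Mnt and Mga encode the 2 large MAX partners, MNT as a widely expressed antagonist of MYC and MGA as the DNA-binding scaffold of a polycomb complex. Mnt, at 11:74830920-74845725 on the plus strand, had 28.4, 30.5 and 31.0 CPM in controls, 58.2, 29.2 and 57.5 CPM in EV tumours, and 79.9, 59.7 and 66.0 CPM in MycT58A tumours. MycT58A tumours were above all other libraries, and EV replicate 2 lay among the controls. Mnt rose 2.29-fold in MycT58A tumours against controls (1.19 ± 0.28, edgeR adjusted p = 0.00524), a call that all 16 alternatives kept. In EV tumours the difference was 0.69 ± 0.27 (edgeR adjusted p = 0.0575), and 0.96 without EV replicate 2 (edgeR adjusted p = 0.00115). Between the tumour groups it was 0.50 ± 0.27 (edgeR adjusted p = 0.238).

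Mga, at 2:119897228-119969581 on the plus strand, had 66.0, 84.0 and 73.9 CPM in controls, 73.6, 69.3 and 89.0 CPM in EV tumours, and 91.9, 91.2 and 134 CPM in MycT58A tumours. MycT58A tumours were above all other libraries by a narrow margin, apart from MycT58A replicate 3, which was far higher. Mga was not called, with 0.05 ± 0.21 for EV against control, 0.50 ± 0.21 for MycT58A against control and 0.45 ± 0.21 for MycT58A against EV, and edgeR adjusted p of 0.847, 0.0645 and 0.181. Without EV replicate 2 or the library labelled EV replicate 3, MycT58A against control passed (edgeR adjusted p = 0.0425 and 0.0411).

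**Figure D3:**
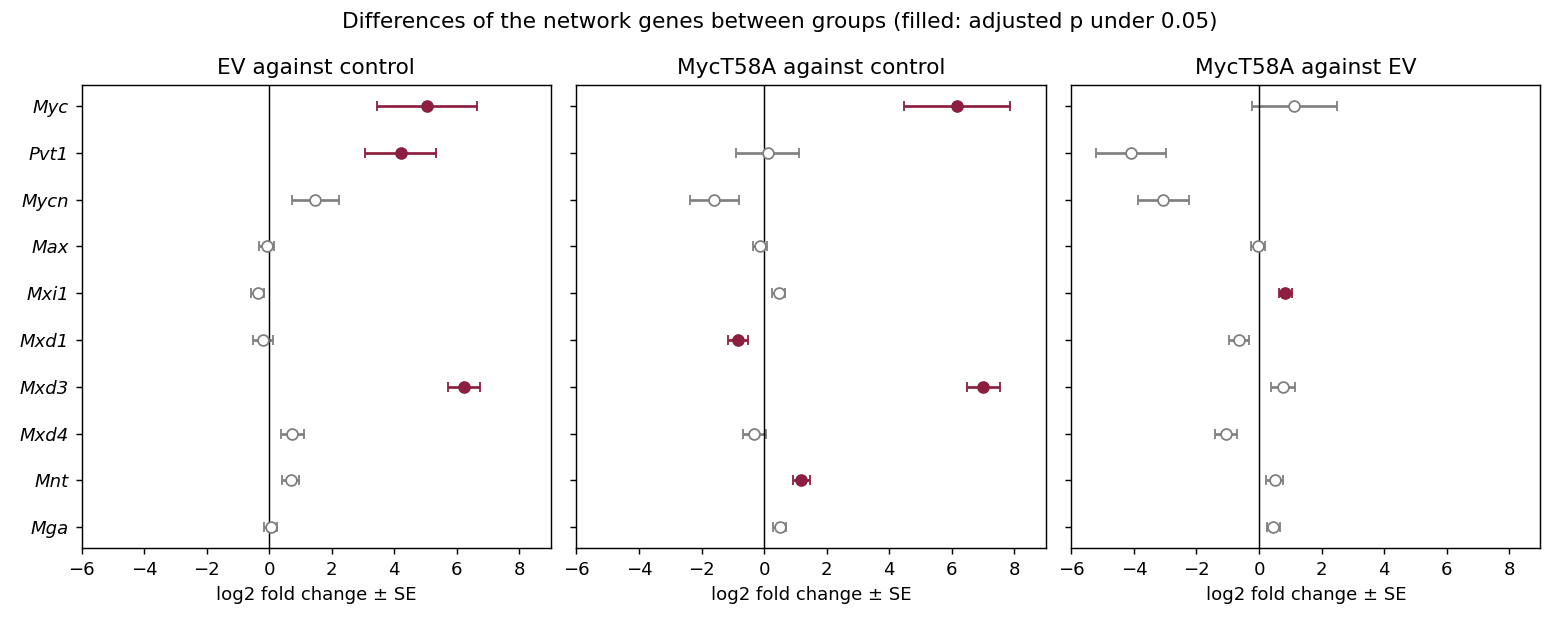
Log2 fold change of the 10 genes in each comparison from the edgeR fit, with bars of ± 1 SE. Filled points have an adjusted p under 0.05: Myc, Pvt1 and Mxd3 in EV against control, Myc, Mxd1, Mxd3 and Mnt in MycT58A against control, and Mxi1 in MycT58A against EV.

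Counted over the network, 3 of the 10 genes were called in EV tumours against controls, all higher: Myc, Pvt1 and Mxd3. Of all genes tested, 57% were called in that comparison, 30.7% higher and 26.3% lower. In MycT58A tumours against controls 4 were called, with Myc, Mxd3 and Mnt higher and Mxd1 lower, where 62.2% of all genes were called. Between MycT58A and EV tumours 1 of 10 was called, Mxi1, where 8.3% of all genes were. Without EV replicate 2 the MycT58A against control count was 7, beside 70.3% of all genes, so that the shares were alike. The count between tumour groups was 0 without any 1 control or MycT58A tumour, 2 without EV replicate 1 or 2, and 3 without the library labelled EV replicate 3, and the genes called there in all ranged from 36 to 3977 instead of 1259. With all 9 libraries the network had a smaller share of calls than all genes in both comparisons with controls, and a close one between the tumour groups. In the same order, groups did not overlap for 2, 8 and 5 of the 10 genes, against 62.5%, 82.5% and 31.8% of all genes. By direction, these were 1 higher and 1 lower in EV against control (30.3% and 32.2% of all genes), 5 higher and 3 lower in MycT58A against control (41% and 41.5%), and 3 higher and 2 lower in MycT58A against EV (18.2% and 13.6%). The median log2 fold change of the 10 was 0.72, 0.29 and 0.20, against 0.14, -0.02 and -0.04 over all genes. Both tumour comparisons use the same controls, and the EV tumours stand in 2 of the 3 comparisons.

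Divided by the length of all annotated exons, the levels can be compared roughly between genes. That length need not be the length of the RNA made. The construct of MycT58A is not given, so the exon length of Myc need not hold for it. In controls Max had the most RNA, 28.9 ± 1.41 CPM per kilobase (SD, n = 3), then Mxi1 with 16.2 ± 1.47 and Mnt with 6.47 ± 0.31. Mga, Mxd4 and Myc followed at 4.86 ± 0.59, 3.87 ± 0.42 and 4.24 ± 6.54 CPM per kilobase, of which Myc does not differ from either beyond its spread. Mxd1, Mycn and Pvt1 came next, and Mxd3 was last at 0.0548 ± 0.0148 CPM per kilobase. In MycT58A tumours Myc led with 307 ± 36.0 CPM per kilobase, followed by Max at 26.5 ± 1.58, Mxi1 at 22.5 ± 1.08 and Mnt at 14.8 ± 2.24. Mxd3 had moved to the fifth place with 7.41 ± 1.43 CPM per kilobase, within its spread of Mga at 6.89 ± 1.602, and Mycn was last with 0.415 ± 0.163. In EV tumours Myc also had the highest mean, 140.1 ± 136.7 CPM per kilobase, but its spread covers the level of Max, 27.3 ± 8.08.

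The balance of network RNA differed between libraries mainly in its MYC family term. Summed over Myc, Mycn and Mycl, MYC family RNA was 0.0856, 0.147 and 0.529 times the Max level per kilobase in controls. The ratio was 4.56, 0.957 and 8.59 in EV tumours and 14.0, 12.3 and 9.97 in MycT58A tumours. By this ratio all tumours were above all controls, and the 2 tumour groups did not overlap. Max itself stayed between 18.2 and 33.7 CPM per kilobase in every library. RNA of Mxd1, Mxi1, Mxd3, Mxd4, Mnt and Mga together was 33.0 to 35.2 CPM per kilobase in controls, 35.1 to 44.4 in EV tumours and 52.7 to 57.9 in MycT58A tumours. Set against that sum instead of Max, MYC family RNA was 0.0791, 0.123 and 0.426 in controls, 3.08, 0.496 and 6.73 in EV tumours, and 6.06, 6.23 and 4.81 in MycT58A tumours. By this second ratio the tumour groups overlapped, with the library labelled EV replicate 3 the highest of all, and EV replicate 2 was close to control replicate 3. These sums and ratios describe RNA, not protein, and carry no test.

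The make-up of each arm differed as well. Myc gave 96.2% to 97.1% of MYC family RNA per kilobase in MycT58A tumours and in EV replicates 1 and 3 gave 96.95% and 96.98%. In EV replicate 2 it gave 42.1%, and Mycn gave 44.4%. In controls Myc gave 13.2%, 14.3% and, in replicate 3, 78.7%. Of MXD RNA, Mxd3 gave at most 0.305% in controls, 10.3% to 24.4% in EV tumours and 17.1% to 24.5% in MycT58A tumours. Mxd4 gave 44.9% in EV replicate 2, against 16.4% and 16.6% in the other EV tumours. Microglia and macrophage markers summed to 356 CPM in EV replicate 2 and to 103 to 244 CPM in the other EV tumours, though Cd68 was highest in replicate 1. Other marker sums were also highest of the EV tumours in replicate 2. Endothelium reached 144 CPM against 25.6 and 56.8, astrocytes 488 against 306 and 235, and oligodendrocytes 221 against 62.7 and 45.8. Granule neuron, forebrain cortex and erythroid sums were instead highest in replicate 3. The part of these differences was not tested.

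**Figure D4:**
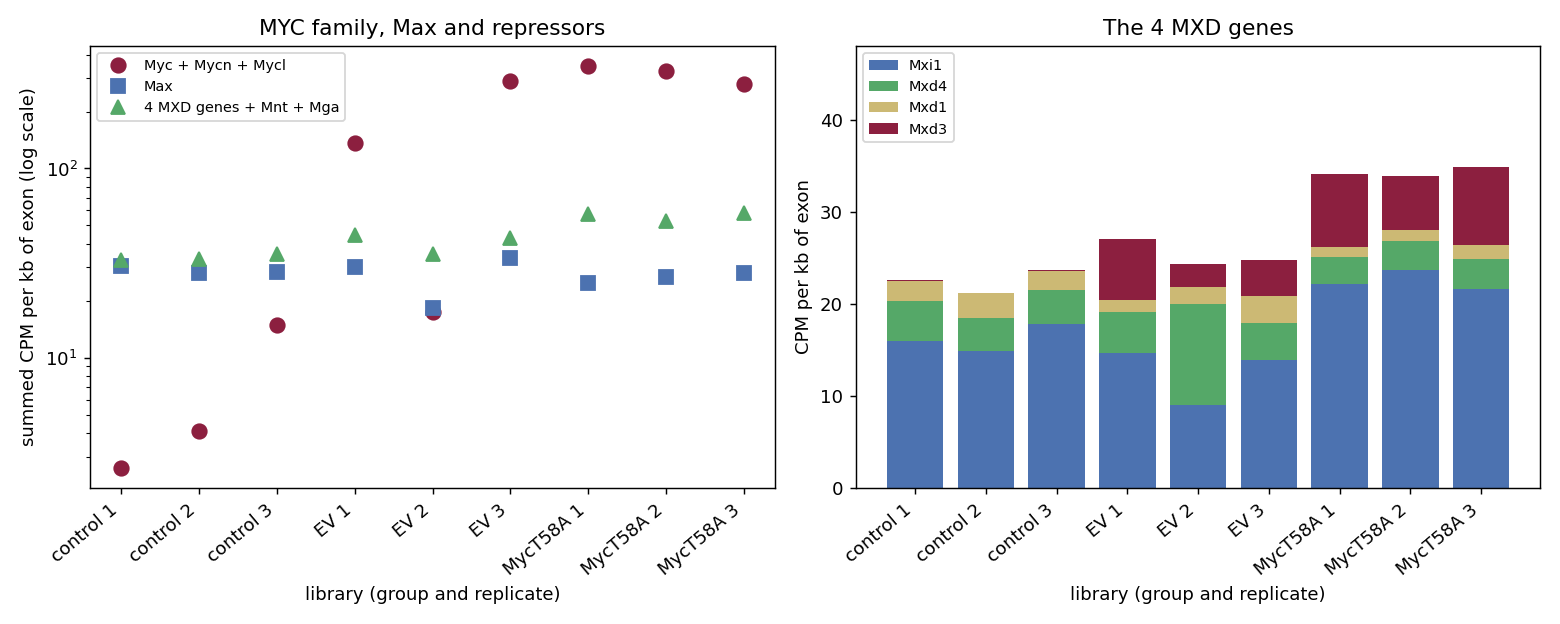
Left, CPM per kilobase of exon on a log axis for the MYC family sum, for Max and for the sum of 4 MXD genes, Mnt and Mga, by library. Right, stacked CPM per kilobase of the 4 MXD genes on a linear axis from 0. The MYC family is 278 or more in every MycT58A tumour, Max is 18.2 to 33.7 throughout, and Mxd3 is visible in the tumours and barely in the controls.

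Around the core stand partner proteins, described by lists chosen with earlier results of these data known. The MLX branch, a parallel network in which MLX takes the place of MAX, was taken with Mycl as a list of 6 genes. Against controls, 2 of the 6 were called higher in EV and 4 in MycT58A tumours, and none lower. Of all genes, 30.7% and 31.2% were called higher, so the EV count of 2 is at that share. The EV count was 4 without EV replicate 2 and 1 without control replicate 1 or 3 or the library labelled EV replicate 3, and the MycT58A count was 2 without control replicate 1 or 3. The median log2 fold changes were 1.29 and 1.44, against 0.14 and -0.02 over all genes. Mlxip, which encodes the glucose sensor MONDOA, had 20.6, 25.7 and 15.9 CPM in controls, 53.6, 21.3 and 79.4 CPM in EV tumours and 52.2, 50.8 and 63.6 CPM in MycT58A tumours. EV replicate 2 again lay among the controls. Mlxip rose 2.48-fold in EV (1.31 ± 0.43, edgeR adjusted p = 0.0276), and in the MycT58A group 2.68-fold (1.42 ± 0.43, edgeR adjusted p = 0.0179). The EV call was lost without control replicate 1 or 3 or without EV replicate 1 or the library labelled EV replicate 3 (edgeR adjusted p = 0.0566 to 0.0896), and the MycT58A call without control replicate 1 or 3 or MycT58A replicate 3 (edgeR adjusted p = 0.0539 to 0.0695). Its target Txnip, a brake on glucose uptake, had 160.0, 57.3 and 21.2 CPM in EV tumours against 7.27 to 14.4 CPM in controls. It rose 7.74-fold (edgeR adjusted p = 0.00726), or 3.82-fold without EV replicate 1 (edgeR adjusted p = 0.0168). Mlx was not called, with log2 differences of 0.47 ± 0.20 and 0.25 ± 0.20 from controls (edgeR adjusted p = 0.0772 and 0.312). Mlxipl, which encodes the glucose-responsive CHREBP, stayed under 4.14 CPM in every library.

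MYC coactivators, 15 genes of histone acetyltransferase, chromatin remodelling and elongation complexes, had 8 called higher and 1 lower in EV tumours, and 10 higher and 1 lower in MycT58A tumours. These are 9 and 11 of 15, beside 57% and 62.2% of all genes called in either direction, so the EV count is near the share of all genes. By direction, 30.7% and 31.2% of all genes were called higher, smaller shares than 8 and 10 of 15. Actl6a, a shared subunit of remodelling complexes, rose 10.6-fold in EV (edgeR adjusted p = 0.000417), and in the MycT58A group 12.3-fold (edgeR adjusted p = 0.000261). Ruvbl2, an ATPase of the same complexes, rose 8.03-fold in MycT58A tumours (edgeR adjusted p = 0.000360). Kat5, the acetyltransferase TIP60, fell 2.58-fold in EV tumours (edgeR adjusted p = 0.00110). The median log2 fold changes of the list were 0.67 and 0.91, against 0.14 and -0.02 over all genes. Between tumour groups edgeR called 0 of the 15, with 4 at an unadjusted p under 0.05. For these, 3 calls came from DESeq2 and 1 from limma-voom. Leaving out EV replicate 1, EV replicate 2 or the library labelled EV replicate 3 gave 1, 1 and 3 calls.

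The SIN3 complex, through which MXD and MNT proteins repress, was listed with other corepressor genes and Zbtb17, which encodes MIZ1, a factor through which MYC itself represses. Of these 12 genes, 5 were called higher and 1 lower in EV tumours, and 8 higher and 0 lower in MycT58A tumours. With 57% and 62.2% of all genes called in either direction, 6 and 8 of 12 are near those shares. Called higher alone were 30.7% and 31.2% of all genes, smaller shares than 5 and 8 of 12. The median log2 fold changes were 0.70 and 1.07, against 0.14 and -0.02 over all genes. The histone deacetylase Hdac1 had 31.1, 30.2 and 35.0 CPM in controls, 150.0, 134 and 126 CPM in EV and 165, 143 and 140.5 CPM in MycT58A tumours. Here EV replicate 2 was among the other tumours and far from the controls. Hdac1 rose 4.26-fold in EV (2.09 ± 0.16, edgeR adjusted p = 3.9e-05), and in the MycT58A group 4.66-fold (2.22 ± 0.16, edgeR adjusted p = 3.04e-05). Sap30, a SIN3 subunit, was the 1 of 12 called between tumour groups, 2.93-fold higher in MycT58A (edgeR adjusted p = 0.0394), while 8.3% of all genes were called there. That count was 0 without any 1 control or any 1 MycT58A tumour, and 2 without EV replicate 1.

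The polycomb complex built on MGA was represented by 11 further subunits, of which 6 were called higher and 1 lower in EV tumours, and 6 higher and 0 lower in MycT58A tumours. Those 7 and 6 of 11 are near the 57% and 62.2% of all genes called in either direction. The higher calls, 6 of 11 in both groups, are larger shares than the 30.7% and 31.2% of all genes called higher. The median log2 fold changes were 0.76 and 1.16, against 0.14 and -0.02 over all genes. Tfdp1, the partner of E2F6 in that complex and of other E2F proteins in the cell cycle, had 26.9, 31.5 and 28.7 CPM in controls, 111, 94.97 and 136 CPM in EV tumours and 298, 268 and 269 CPM in MycT58A tumours. The 3 groups were well apart. It rose 9.59-fold in MycT58A tumours against controls (3.26 ± 0.19, edgeR adjusted p = 1.99e-05) and was 2.44-fold higher in MycT58A than in EV (1.29 ± 0.18, edgeR adjusted p = 0.0109). With Cbx3, a heterochromatin protein (1.71-fold, edgeR adjusted p = 0.0382), it made 2 of 11 called between the tumour groups, where 8.3% of all genes were. The count was 4 without EV replicate 2, 1 without any 1 control and 0 without any 1 MycT58A tumour.

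Of 18 genes that control MYC protein turnover, 8 were called higher and 5 lower in EV tumours, and 10 higher and 5 lower in MycT58A tumours, with medians of 0.32 and 0.65 log2 units against 0.14 and -0.02 over all genes. Of all genes, 57% and 62.2% were called in either direction, and 30.7% and 31.2% were called higher. Skp2, a ubiquitin ligase subunit of the cell cycle that also acts on MYC, rose 12.3-fold in EV (edgeR adjusted p = 0.000430), and in the MycT58A group 27.2-fold (edgeR adjusted p = 0.000125). The ligase genes Btrc and Trim32 fell 3.94-fold (edgeR adjusted p = 0.000200) and 3.92-fold (edgeR adjusted p = 9.23e-05) in EV tumours. In MycT58A tumours they fell 4.13-fold (edgeR adjusted p = 0.000141) and 4.08-fold (edgeR adjusted p = 6.95e-05). Fbxw7 fell 2.95-fold in EV (edgeR adjusted p = 0.0307), and in the MycT58A group 4.61-fold (edgeR adjusted p = 0.00653). Its EV values ran from 15.4 to 76.9 CPM. Gsk3a fell 2.04-fold (edgeR adjusted p = 0.000646) and 1.58-fold (edgeR adjusted p = 0.00476). Gsk3b was called in neither group (edgeR adjusted p = 0.143 and 0.0679). Between the tumour groups edgeR called 0 of the 18, with 3 at an unadjusted p under 0.05. For these, 1 call came from DESeq2 and 0 from limma-voom. Without the library labelled EV replicate 3, 2 were called.

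Textbook targets of MYC were read next. Of 32 genes known to be activated by MYC, 30 were called higher in EV and 32 in MycT58A tumours, and none lower, where 30.7% and 31.2% of all genes were called higher. Relative to the control mean, the list's median was 1.98, 0.78 and 2.81 log2 units in EV tumours and 2.95, 3.02 and 3.07 in MycT58A tumours. EV replicate 2 was the lowest tumour, though above the controls, and the library labelled EV replicate 3 came close to the MycT58A tumours. Cdk4, a kinase of the cell cycle, had 29.6 to 35.3 CPM in controls, 748, 290.0 and 411 CPM in EV and 733, 647 and 686 CPM in MycT58A tumours. Cdk4 rose 15.2-fold in EV (edgeR adjusted p = 7.36e-05), and in the MycT58A group 21.7-fold (edgeR adjusted p = 4.36e-05). Eif4a1, a translation initiation factor, rose 4.52-fold (edgeR adjusted p = 0.000279) and 8.59-fold (edgeR adjusted p = 5.89e-05). Many of these genes also serve dividing cells in general, and the division markers moved with them, whose part was not tested.

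Between tumour groups, 30 of the 32 had a positive log2 fold change and 19 did not overlap, but only 2 were called higher. They were Mthfd2, a mitochondrial folate enzyme (2.14-fold, edgeR adjusted p = 0.0442), and the transferrin receptor gene Tfrc (5.24-fold, edgeR adjusted p = 0.0488). Tfrc had 243, 156 and 620.3 CPM in MycT58A tumours and 62.7, 28.1 and 103.8 CPM in EV tumours, and without MycT58A replicate 3 it was 3.09-fold higher and not called (edgeR adjusted p = 0.156). Of all genes, 3.28% were called higher in that comparison and 18.2% did not overlap in that direction. The count was 18 without the library labelled EV replicate 3, 3 higher and 1 lower without EV replicate 2, 1 without EV replicate 1, and 0 without any 1 control or MycT58A tumour. DESeq2 called 8 and limma-voom 6.

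Of 12 genes that MYC is known to repress, in part through MIZ1, 6 were called higher and 2 lower in EV tumours, and 3 higher and 2 lower in MycT58A tumours. Of all genes, 57% and 62.2% were called, so 5 of 12 in MycT58A tumours is below that share. By direction, 30.7% and 31.2% of all genes were called higher, and 26.3% and 31% lower. The MycT58A count of 5 was 9 without the library labelled EV replicate 3 and 3 without any 1 control or MycT58A replicate 2. In MycT58A against EV tumours, 3 of 12 were called and all were lower, where 5.02% of all genes were lower. They are the cyclin-dependent kinase inhibitor genes Cdkn1a, Cdkn1c and Cdkn2b. Cdkn1c had 6.87 to 8.87 CPM in controls, 90.2, 192 and 268 CPM in EV and 35.5, 37.3 and 41.7 CPM in MycT58A tumours. Every EV tumour was above every MycT58A tumour, and both were above the controls. Cdkn1c fell 4.805-fold from EV to MycT58A (-2.26 ± 0.36, edgeR adjusted p = 0.0144). Cdkn1a had 107, 132 and 1176 CPM in EV and 30.2 to 37.2 CPM in MycT58A tumours (13.8-fold lower, edgeR adjusted p = 0.0415). Its highest value was in the library labelled EV replicate 3, the EV tumour with the most Myc, and without that library Cdkn1a was 3.49-fold lower (edgeR adjusted p = 0.00532). Cdkn2b was 4.82-fold lower (edgeR adjusted p = 0.0378), or 3.05-fold without EV replicate 2 (edgeR adjusted p = 0.0347). The count of 3 was 6 without EV replicate 2, 5 without the library labelled EV replicate 3, 1 without any 1 control and 0 without any 1 MycT58A tumour.

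**Figure D5:**
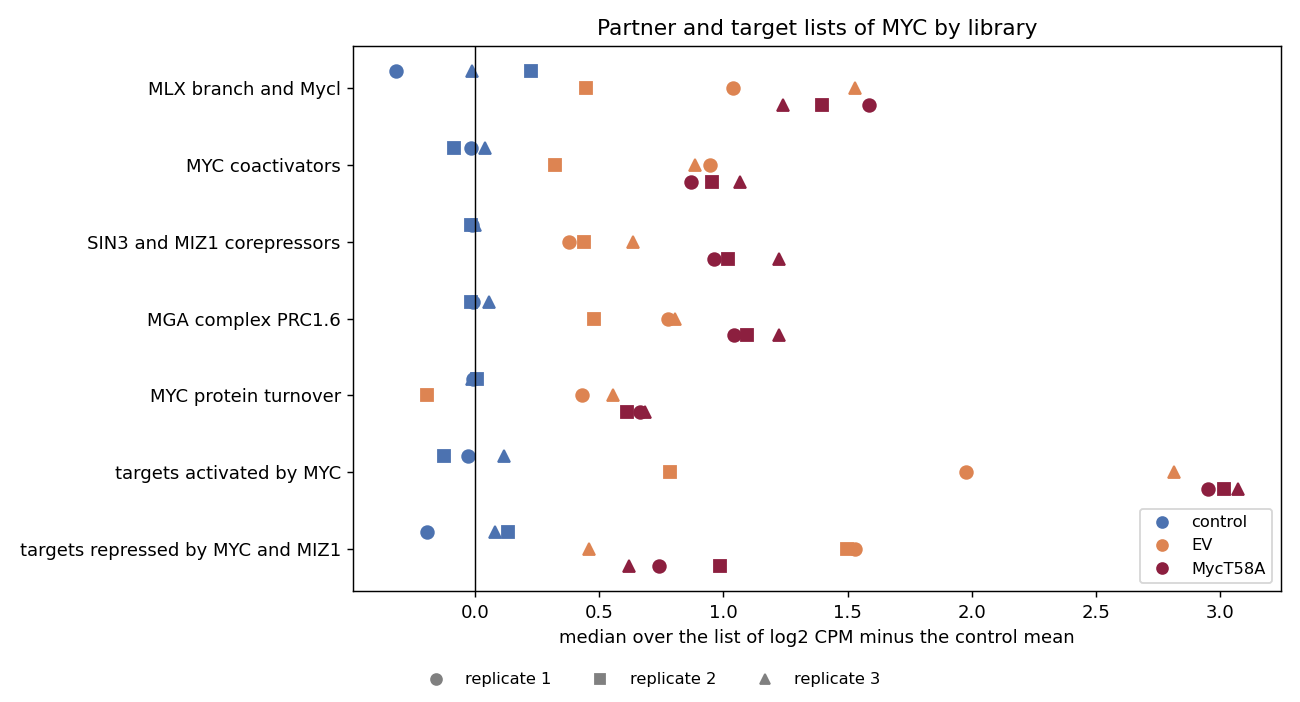
Median over each list of log2 CPM minus the mean of the 3 controls, 1 point per library, with colours for groups and shapes for replicate numbers. For targets activated by MYC the MycT58A tumours lie at 2.95 to 3.07 and the EV tumours at 0.78 to 2.81.

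For the 3 genes with the widest spread among EV tumours, the nearest patterns were sought among 13928 genes by the root-mean-square difference of centred log2 CPM over the 9 libraries. Nearest to Myc were Psrc1, a spindle protein gene, at 0.80 log2 units, and the Y-linked Eif2s3y and Ddx3y at 0.83 and 0.87. Psrc1 was at most 2.10 CPM in controls, 16.5, 1.57 and 14.9 CPM in EV and 23.7 to 25.5 CPM in MycT58A tumours. Like Myc, the gene it was picked to match, Psrc1 was lower in EV replicate 2 than in every other tumour. Nearest to Pvt1 were Pygl, the liver glycogen phosphorylase gene, at 0.70, then Aim1l at 0.80 and Cdsn at 0.95. Pygl reached 55.4 CPM in the library labelled EV replicate 3 and 7.81 CPM in EV replicate 1, against 1.21 to 1.91 CPM elsewhere. Nearest to Mycn were Tlr9, a DNA sensor of immune cells, at 0.32, Gbp3, an interferon-induced GTPase gene, at 0.34 and Tmem37 at 0.38. Gbp3 was 34.1 CPM in EV replicate 2 and 0.958 to 8.45 CPM in the other libraries. Mycn and these 3 genes, which were picked to match it in these same libraries, were all highest in EV replicate 2 and lowest in MycT58A tumours.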

How the data were processed

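RNA of 3 control cerebella, 3 EV tumours and 3 MycT58A tumours was sequenced, and the authors deposited whole-number read counts per gene symbol. The submitters' processing notes name bcl2fastq, TopHat, edgeR and build mm10. For the counting program, its annotation and its use of strand: not given in the sources used here. The 10 genes were taken by symbol, and the members and lists were chosen with earlier results of these data known. All 9 libraries entered 1 fit in edgeR 4.0.16 (R 4.3.3) with 1 mean per group: filterByExpr by group (minimum count 10, minimum total 15) kept 15171 of 24444 symbols, TMM gave the scaling, and the quasi-likelihood test was adjusted by Benjamini-Hochberg over all genes kept, threshold 0.05. SE is the log2 fold change over the root of F. The 95% intervals use 6 residual degrees of freedom, fewer than the test uses, so they are wider than its p would give. Total counts of 16631523 to 30410089 set the precision, and 3 counts correspond to 0.103 to 0.170 CPM. Log2 CPM in the patterns and list medians uses a prior count of 2. CPM per kilobase uses exon lengths of GENCODE vM21, matched for 23703 symbols. The scripts were tested on simulated counts. Genes are named by rule: the 10 genes, Mycl, Mlx, Mlxip and Mlxipl, up to 3 of smallest p from each list and comparison, the 3 nearest patterns of Myc, Pvt1 and Mycn, tested genes near Myc, and cell type markers. Overlapping genes, the Y-linked genes, Fbxw7, Gsk3a and Gsk3b were added after values were seen. Alternatives were RLE factors, library size alone, no filter, a 1 CPM filter, only the 2 groups compared, DESeq2 1.42.0, limma-voom (limma 3.58.1) and leaving out each library. Summed markers stayed near background for T cells (0 to 1.44 CPM) and B cells (0.240 to 0.753 CPM), at 0.171 to 21.9 CPM for erythroid cells, 24.7 to 144 CPM for endothelium, 7.59 to 1280.4 CPM for astrocytes and 19.7 to 4314 CPM for oligodendrocytes, over all libraries.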

Additional observations from a re-analysis of the deposited data

How the results depend on the processing

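Calls of Mxd3 against controls in both tumour groups, and of Myc and Mnt in MycT58A tumours against controls, passed under all 16 alternatives. The count of network genes called in MycT58A against control rose from 4 to 8 with only the 2 groups compared, where 80.5% of all genes were called, and lay between 3 and 7 when 1 library was left out. For MycT58A against EV, the 1 network gene called became 0 with library size alone, without the filter or with only the 2 groups, 4 with DESeq2, and 0 to 3 when 1 library was left out. The 1259 genes called there became 34 with only the 2 groups, 3446 with DESeq2, and 36 (without MycT58A replicate 3) to 3977 (without the library labelled EV replicate 3). Of those calls 39.6% were higher in the main analysis, 24.3% with library size alone and 58.4% with limma-voom, and library size alone moved the median of all genes from -0.04 to -0.17. Library size alone moved no network gene across 0. Signs turned only for differences near 0. Max in EV against control was 0.0229 without the filter and -0.235 to 0.146 when 1 library was left out, and in MycT58A against EV 0.00645 with limma-voom and -0.265 to 0.129. Leaving out 1 library gave -0.535 to 0.031 for Mxd1 and -0.0386 to 0.174 for Mga in EV against control, and -0.00577 to 0.334 for Pvt1 in MycT58A against control. The cause of these shifts was not tested. No paired analysis was possible because the labels give no replicate numbers. Genes near 0, such as Mxd3 in controls with 9 counts, are limited by depth. Groups of 3 limit every comparison.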
